A study of Mus musculus with 6 samples.

Results

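The enzymes that make bile acids from cholesterol were examined in liver RNA of pregnant mice. The 10 genes were chosen by name, as the members of the classic and alternative synthesis pathways and of conjugation: *Cyp7a1*, *Cyp8b1*, *Cyp27a1*, *Cyp7b1*, *Hsd3b7*, *Akr1d1*, *Amacr*, *Acox2*, *Slc27a5* and *Baat*. All 10 were found by gene ID among the 56691 genes of the deposited table. The rule itself uses no measured value, but the genes were proposed with earlier results of these data known. The KPF group held 3 dams with hepatocyte-specific loss of ChREBP (h*Chrebp* KO), and the WPF group held 3 dams called WT in the sample labels and *Chrebp* flox/flox in the study's methods. Both groups carried the floxed alleles of *Chrebp* (gene symbol *Mlxipl*), were mated with flox/flox males and ate a high-fructose diet (HFrD) from mating until they were sacrificed late in gestation, and KPF dams alone carried Cre driven by the albumin promoter. The ages of the dams were not given in the sources used here. The study's methods place the loss of the gene in hepatocytes, and whether other liver cells kept it was not measured here. In the whole livers sequenced here, fewer cells of a type and less RNA per cell cannot be told apart. The question was whether the mRNA of the bile acid enzymes differed between the livers of KPF and WPF dams.

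Bile acids are the main route by which cholesterol leaves the body. The classic pathway opens with the hydroxylation of cholesterol by CYP7A1, and the alternative pathway opens with the oxidation of the side chain by CYP27A1, followed by CYP7B1. HSD3B7 and AKR1D1 then reshape the sterol rings, CYP8B1 adds the hydroxyl group that distinguishes cholic acid, AMACR and ACOX2 take part in shortening the side chain in peroxisomes, and SLC27A5 and BAAT activate bile acids and join them to taurine or glycine. In hepatocytes, bile acids returning from the gut repress *Cyp7a1* and *Cyp8b1*, in part through the receptor FXR (*Nr1h4*) and the repressor SHP (*Nr0b2*).

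Between 10694496 and 11567941 reads were counted on genes in the KPF libraries and between 12988865 and 14496630 in the WPF libraries. Values per library are CPM, read counts scaled to one library size with TMM normalization (which allows for differences in library composition), and are given in the order of KPF replicates 1, 2 and 3 and then WPF replicates 2, 3 and 4. *Mlxipl*, the targeted gene, was at 182, 709 and 860 CPM in KPF dams and at 974, 1277 and 891 CPM in WPF. Its groups did not overlap, but its log2 fold change did not pass the test (-0.84, standard error 0.53, adjusted p = 0.584 from edgeR), and KPF replicate 3 lay close to WPF replicate 4. Without KPF replicate 1, the log2 fold change of *Mlxipl* was -0.42. Leaving out another library gave values from -1.23 (KPF replicate 3) to -0.68 (WPF replicate 3). Its counts cover the whole gene, of which exon 2 is floxed. KPF replicate 2 stood apart from the other libraries (Pearson r of log2(CPM + 1) across genes between 0.879 and 0.896 with each of them). In it, 7 skeletal muscle genes summed to 3570 CPM, against 5.40 to 13.3 CPM elsewhere. They were listed after the data were seen (*Acta1*, *Ckm*, *Myh4*, *Myh1*, *Tnnt3*, *Mylpf* and *Pvalb*). All 7 passed the unadjusted rule (p under 0.05 and 1.5-fold) as higher in KPF dams, but without KPF replicate 2 only *Acta1*, *Ckm* and *Myh1* passed it, as lower. Those calls rested on few reads. KPF replicates 1 and 3 held 5 and 6 reads of *Acta1*, 2 and 1 of *Ckm* and 4 and 4 of *Myh1*. WPF dams held 39, 36 and 12 of *Acta1*, 11, 15 and 7 of *Ckm* and 31, 21 and 11 of *Myh1*. WPF replicate 4 was nearest to KPF replicate 3 (r = 0.961), whereas WPF replicates 2 and 3 were nearest to each other (r = 0.980). For each enzyme, the range of its log2 fold change when each library was left out in turn is given beside its value with all libraries.

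No bile acid enzyme passed the test between KPF and WPF. Of the 10 genes, 9 had a mean FPKM (reads divided by exonic length and by the counted reads of the library) of at least 1 and were tested among 10866 genes, and *Hsd3b7*, at a mean of 0.997, was fitted without an adjusted p. By an unadjusted p under 0.05 with a change of at least 1.5-fold, 0 enzymes were called, where 9.81% of all tested genes were called (5.83% higher and 3.98% lower in KPF). At an unadjusted p under 0.05 alone the count was also 0, and the smallest p among the enzymes was 0.0973, for *Hsd3b7*. Neither DESeq2 nor limma called an enzyme by the same rule. At an adjusted p under 0.05, edgeR called 0.0% of the tested genes (1176 had an unadjusted p under 0.05) and none of the enzymes, and DESeq2 called 156 genes, also with no enzyme among them. The fitted level was higher in KPF for 5 enzymes and lower for 5, with a median log2 fold change of 0.13 against 0.02 over all tested genes. For 4 enzymes (*Cyp7a1*, *Cyp8b1*, *Hsd3b7* and *Slc27a5*) the fitted difference was 1.5-fold or more, but the median standard error of the enzymes was 0.51 against 0.30 over the tested genes. In 0 of the 10 enzymes did the KPF and WPF libraries separate without overlap, where 15.7% of tested genes did so.

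**Figure D1:**
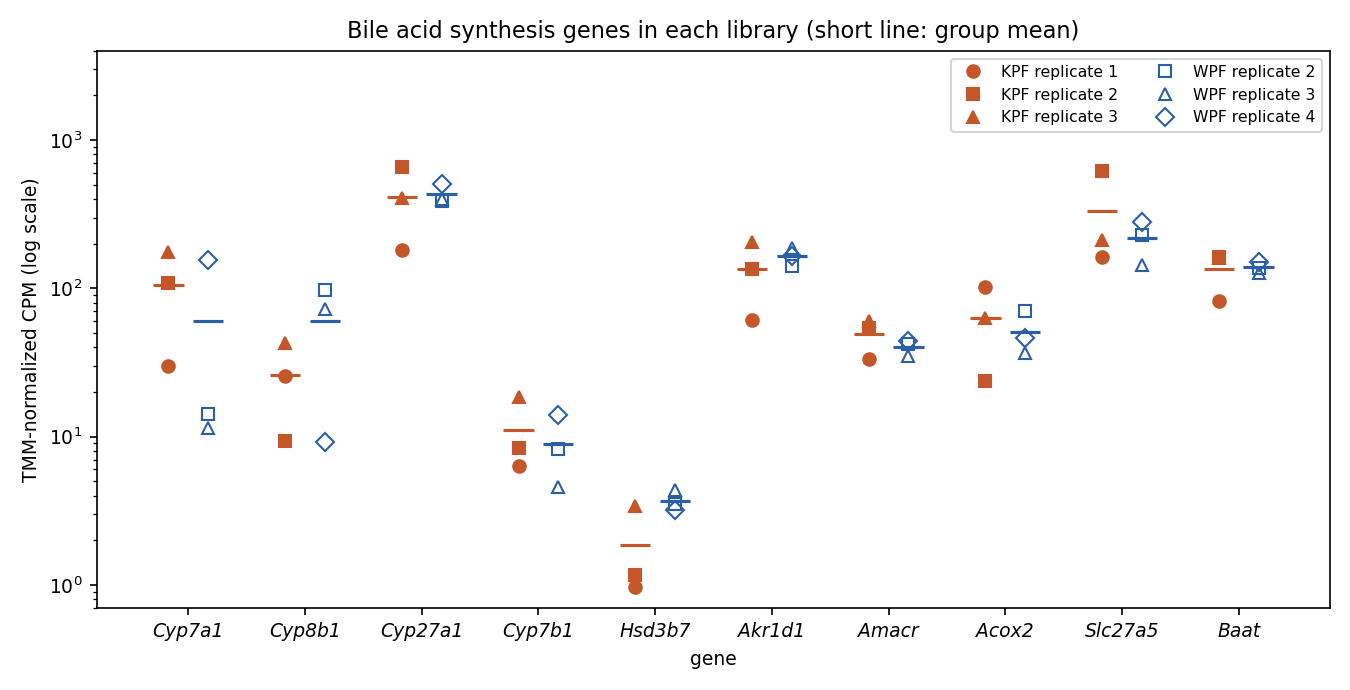
TMM-normalized CPM (log axis) of the 10 bile acid synthesis genes in the 6 libraries; filled symbols are KPF dams, open symbols are WPF dams, and the short line is the group mean. The KPF and WPF symbols overlap for every gene, and the WPF symbols of *Cyp7a1* and *Cyp8b1* split between replicate 4 and replicates 2 and 3.

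*Cyp7a1* (ENSMUSG00000028240, chr4:6265612-6275633 on the minus strand, GRCm39), the rate-limiting enzyme of the classic pathway, varied most of all the enzymes. It was at 30.1, 109 and 175 CPM in KPF dams and at 14.3, 11.5 and 155 CPM in WPF. WPF replicate 4 lay between KPF replicates 2 and 3, while the other WPF dams were below every KPF dam. The highest and lowest of the 6 libraries differed 15.3-fold, and the WPF dams alone differed 13.6-fold. The mean was 105 ± 72.5 CPM in KPF and 60.4 ± 82.3 CPM in WPF (SD, n = 3 each). The log2 fold change was 0.79 (standard error 1.04, 95% interval from -1.63 to 3.21, adjusted p = 0.797 from edgeR, exact two-sided permutation p = 0.3). Without WPF replicate 4, which was singled out after its values were seen, the log2 fold change was 3.01 (standard error 0.73, unadjusted p = 0.00468, adjusted p = 0.256 from edgeR). Leaving out another library gave 0.20 (KPF replicate 3), 0.30 (WPF replicate 3), 0.33 (WPF replicate 2), 0.76 (KPF replicate 2) and 1.23 (KPF replicate 1), none of them past the rule.

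*Cyp8b1* (ENSMUSG00000050445, chr9:121743422-121745371 on the minus strand, GRCm39) is the hydroxylase that sets the share of cholic acid. Its exonic length of 1950 bases equals its span, so the annotation places no intron in it. Its levels were 25.6, 9.32 and 42.8 CPM in KPF and 97.8, 73.0 and 9.26 CPM in WPF. WPF replicates 2 and 3 were above every KPF dam, and WPF replicate 4 was the lowest library. The highest and lowest libraries differed 10.6-fold, with means of 25.9 ± 16.8 CPM in KPF and 60.0 ± 45.7 CPM in WPF (SD, n = 3 each). This gave a log2 fold change of -1.21 (standard error 0.82, 95% interval from -3.12 to 0.69, adjusted p = 0.610 from edgeR, exact permutation p = 0.6). Without WPF replicate 4 it was -1.73 (standard error 0.56, unadjusted p = 0.0183, adjusted p = 0.359 from edgeR), and leaving out another library gave values from -1.78 (KPF replicate 3) to -0.67 (WPF replicate 2), with -0.82 without KPF replicate 2, none of them past the rule.

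Leaving out WPF replicate 4 thus put 2 enzymes, *Cyp7a1* and *Cyp8b1*, past the unadjusted rule, in opposite directions, where 10.7% of all tested genes passed it with the same 5 libraries. *Cyp7a1*, *Cyp8b1* and *Hsd3b7* then did not overlap between groups, as did 30.5% of tested genes. WPF replicate 4 was also the only WPF dam with a high level of the clock output gene *Dbp* (288 CPM, against 2.01 and 1.57 CPM). KPF dams had *Dbp* at 38.8, 208 and 5.94 CPM. Without WPF replicate 4, genotype and this difference in *Dbp* are harder to tell apart, and its part in the stronger fold changes was not tested.

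The promoter of *Cyp8b1* is shown because *Cyp8b1* was, of the enzymes with a RefSeq window, the one that varied most, and that of *Cyp27a1* because it was the most abundant enzyme. Windows were matched for 5 of the 10 genes. The 250 bases before each start site (RefSeq, GRCm38.p6) are given 5′ to 3′ on the gene's strand, with matches to the motifs searched in capitals. *Cyp8b1* lies at chr9:121916306-121916555 on the minus strand and *Cyp27a1* at chr1:74713285-74713534 on the plus strand of that build.
Cyp8b1: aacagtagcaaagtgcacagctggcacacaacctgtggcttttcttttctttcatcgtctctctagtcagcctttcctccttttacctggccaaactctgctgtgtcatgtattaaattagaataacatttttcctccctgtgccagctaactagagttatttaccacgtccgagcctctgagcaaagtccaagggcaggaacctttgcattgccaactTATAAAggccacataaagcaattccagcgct
Cyp27a1: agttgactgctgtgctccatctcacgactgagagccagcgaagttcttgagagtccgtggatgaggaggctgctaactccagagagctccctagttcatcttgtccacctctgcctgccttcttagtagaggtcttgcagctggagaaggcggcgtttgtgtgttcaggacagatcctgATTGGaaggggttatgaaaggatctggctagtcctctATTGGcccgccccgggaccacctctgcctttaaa
The capitals mark TATAAA, at 31 bases before the start of *Cyp8b1*, and CCAAT on the opposite strand (read as ATTGG), at 71 and 34 bases before the start of *Cyp27a1*. Over both strands of 32544 windows of 300 bases, TATAAA occurred in 13.6% and CCAAT in 37.4%. The core E-box CACGTG occurred in 7.17% of windows and GTTAAT in 7.13%, and each was in 0 of the 6 windows of these genes. AGGTCA occurred in 16.2% of windows and in 1 of the 6, that of *Akr1d1*, at 232 and 210 bases before its start. None of these motifs contains another.

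The ratio of *Cyp8b1* to *Cyp7a1*, per base of exon within each library, was 1.82, 0.183 and 0.524 in KPF and 14.7, 13.6 and 0.128 in WPF. *Cyp8b1* mRNA thus exceeded *Cyp7a1* mRNA in KPF replicate 1 and WPF replicates 2 and 3, and was below it in the others. The 6 ratios spanned 115-fold, with the highest and the lowest both in WPF, and the groups overlapped.

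**Figure D2:**
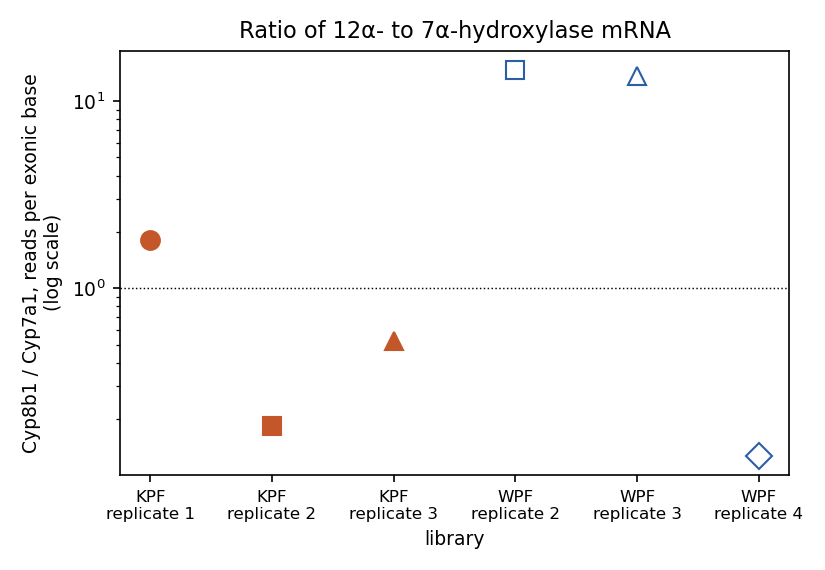
Ratio of *Cyp8b1* to *Cyp7a1* reads per exonic base (log axis) in each of the 6 libraries; filled symbols are KPF dams, open symbols are WPF dams, and the dotted line marks equal levels. WPF replicates 2 and 3 sit at 14.7 and 13.6, and WPF replicate 4 is the lowest at 0.128, below the KPF range of 0.183 to 1.82.

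*Cyp27a1* (ENSMUSG00000026170, chr1:74752733-74777051, GRCm39), the mitochondrial enzyme that opens the alternative pathway, was at 181, 656 and 408 CPM in KPF dams and at 391, 401 and 508 CPM in WPF. The WPF dams differed 1.30-fold and lay inside the KPF range, in which KPF replicate 2 was highest and KPF replicate 1 lowest. Its log2 fold change was -0.06 (standard error 0.44, 95% interval from -1.10 to 0.97, adjusted p = 0.967 from edgeR), and leaving out 1 library gave values from -0.57 (KPF replicate 2) to 0.30 (KPF replicate 1), with 0.06 without WPF replicate 4. *Cyp7b1* (ENSMUSG00000039519, chr3:18126114-18297502, GRCm39), the oxysterol hydroxylase that follows it, was far less abundant, at 6.37, 8.34 and 18.6 CPM in KPF and 8.23, 4.56 and 14.0 CPM in WPF. KPF replicate 3 and WPF replicate 4 were the highest, and the groups overlapped. For *Cyp7b1* the log2 fold change was 0.31 (standard error 0.52, 95% interval from -0.89 to 1.52, adjusted p = 0.836 from edgeR). It was 0.79 without WPF replicate 4, 0.47 without KPF replicate 2, 0.59 without KPF replicate 1, -0.28 without KPF replicate 3 and -0.0020 without WPF replicate 3, so its direction rested on single dams.

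*Hsd3b7* (ENSMUSG00000042289, chr7:127399776-127402974, GRCm39), which oxidizes the ring hydroxyl group after the first hydroxylation, was counted with few reads: 10, 13 and 35 in KPF and 40, 61 and 54 in WPF. These made 0.97, 1.17 and 3.41 CPM in KPF and 3.50, 4.34 and 3.20 CPM in WPF. KPF replicate 3 was at the level of the WPF dams and the other KPF dams were below all of them. Between groups the log2 fold change was -0.995 (standard error 0.53, 95% interval from -2.22 to 0.23, unadjusted p = 0.0973, exact permutation p = 0.2). Without KPF replicate 3 it was -1.78 (unadjusted p = 0.00461 from edgeR), and leaving out another library gave values from -1.10 to -0.69, so the position of 1 dam decided the call. The counts of *Hsd3b7* are uncertain, since *9430064I24Rik* on the opposite strand covers 2159 of its 3199 bases and held 88 reads over the 6 libraries, and *Gm49388* spans all of it on the same strand and held 1 read. *Akr1d1* (ENSMUSG00000038641, chr6:37507108-37545750, GRCm39), the reductase that gives bile acids their bent ring system, was at 61.5, 135 and 205 CPM in KPF dams and at 142, 188 and 165 CPM in WPF. KPF replicate 1 was lowest and KPF replicate 3 highest, with the WPF dams between them. Its log2 fold change was -0.30 (standard error 0.42, 95% interval from -1.28 to 0.67, adjusted p = 0.807 from edgeR), and leaving out 1 library gave values from -0.75 (KPF replicate 3) to 0.04 (KPF replicate 1). *Gm7463*, with 829 reads, overlaps 547 bases of *Akr1d1* on the same strand.

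*Amacr* (ENSMUSG00000022244, chr15:10981842-10996712, GRCm39), the racemase that prepares the side chain for oxidation, varied least, 1.81-fold over the 6 libraries. It was at 33.5, 54.1 and 60.6 CPM in KPF dams and at 41.9, 34.7 and 43.9 CPM in WPF. KPF replicates 2 and 3 were above all WPF dams and KPF replicate 1 was below them. The log2 fold change was 0.30 (standard error 0.26, 95% interval from -0.32 to 0.91, adjusted p = 0.697 from edgeR), and leaving out 1 library gave values from 0.12 (KPF replicate 3) to 0.51 (KPF replicate 1). *Acox2* (ENSMUSG00000021751, chr14:14210420-14244262, GRCm39), the peroxisomal oxidase of the side chain, was at 101, 23.7 and 63.3 CPM in KPF dams and at 70.3, 36.7 and 46.1 CPM in WPF. Its highest and lowest libraries were both KPF dams, replicates 1 and 2. The log2 fold change was 0.30 (standard error 0.50, 95% interval from -0.87 to 1.47, adjusted p = 0.838 from edgeR), and leaving out 1 library gave values from -0.23 (KPF replicate 1) to 0.69 (KPF replicate 2).

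*Slc27a5* (ENSMUSG00000030382, chr7:12722273-12732119, GRCm39), the ligase that activates bile acids with coenzyme A, was at 162, 622 and 212 CPM in KPF dams and at 228, 143 and 280 CPM in WPF. Only KPF replicate 2 was above the WPF range. The log2 fold change of 0.61 (standard error 0.53, 95% interval from -0.63 to 1.86, adjusted p = 0.694 from edgeR) became -0.22 without KPF replicate 2, and leaving out another library gave values from 0.39 to 0.94. *Baat* (ENSMUSG00000039653, chr4:49489422-49506557, GRCm39), the transferase that conjugates bile acids to amino acids, was at 82.3, 163 and 159 CPM in KPF dams and at 137, 128 and 151 CPM in WPF. KPF replicate 1 was the lowest library, and the WPF dams differed 1.18-fold. For *Baat* the log2 fold change was -0.04 (standard error 0.31, 95% interval from -0.75 to 0.67, adjusted p = 0.968 from edgeR), and leaving out 1 library gave values from -0.21 (KPF replicate 2) to 0.22 (KPF replicate 1), with 0.02 without WPF replicate 4.

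**Figure D3:**
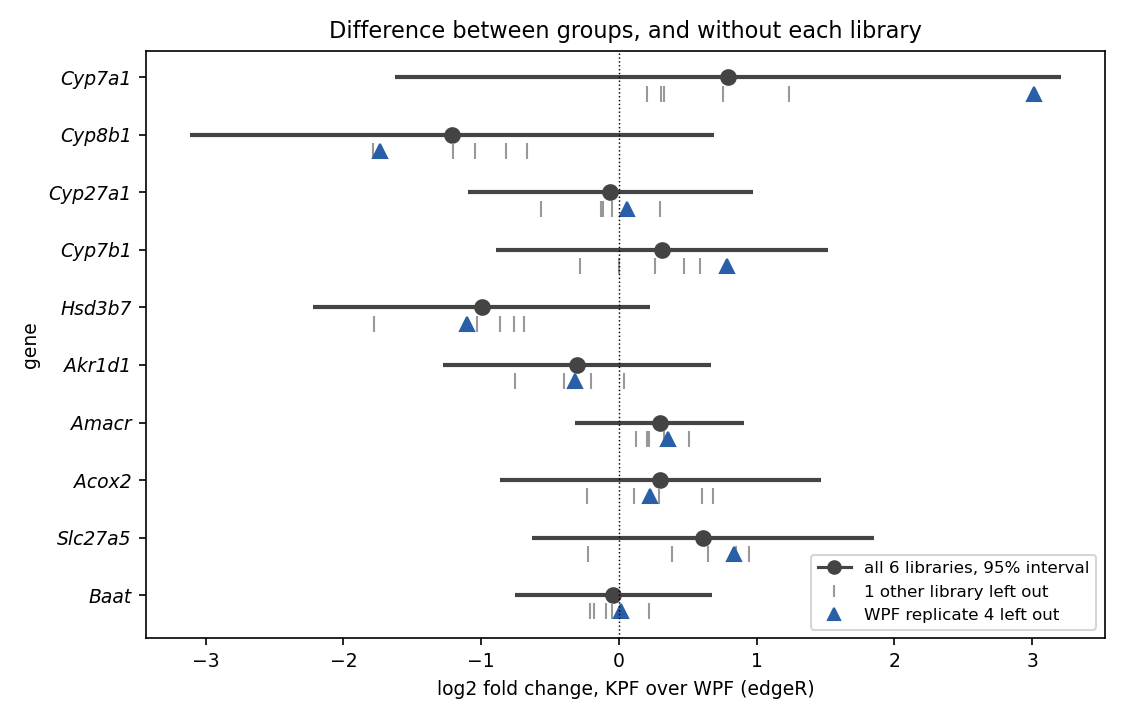
Log2 fold change of KPF over WPF for each enzyme gene from edgeR; dots with bars are all 6 libraries with 95% intervals, grey ticks leave out 1 library, and triangles leave out WPF replicate 4. All 10 intervals include 0, and the triangle of *Cyp7a1* stands at 3.01 against 0.79 with all libraries.

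Dams of the same group differed in these genes by more than they did in most genes. The within-group SD of log2(CPM + 1) was 1.70 for *Cyp7a1* and 1.46 for *Cyp8b1*, higher than in 98.9% and 98.4% of the tested genes. It was 0.81 for *Acox2*, 0.80 for *Slc27a5*, 0.72 for *Cyp7b1*, 0.68 for *Cyp27a1* and 0.63 for *Akr1d1*, each above that of at least 88.0% of tested genes. *Hsd3b7* (0.47), *Baat* (0.40) and *Amacr* (0.34) had the lowest values, against a median of 0.32 over the tested genes. These were above 75.6%, 66.4% and 53.9% of tested genes, so *Amacr* lay near the middle. The 1 added to each CPM lowers the SD of a gene at few CPM, so *Hsd3b7* cannot be called steady. The highest and lowest libraries of *Hsd3b7* differed 4.50-fold. These SDs are descriptions of 3 dams a group and were not tested. KPF replicate 1 was the lowest library for 5 enzymes (*Cyp27a1*, *Hsd3b7*, *Akr1d1*, *Amacr* and *Baat*), KPF replicate 3 was the highest for 4 and KPF replicate 2 for 3.

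Levels of different genes can be set side by side only per length, so FPKM was used for their order. In WPF, *Cyp27a1* was most abundant, with a mean of 209 ± 57.6 FPKM, followed by *Slc27a5* at 92.8 ± 36.5, *Baat* at 74.3 ± 14.5 and *Akr1d1* at 59.8 ± 14.4 FPKM (SD, n = 3). *Cyp8b1* (29.9 FPKM), *Cyp7a1* (16.4), *Amacr* (16.0) and *Acox2* (13.9) came next, and *Cyp7b1* (4.36) and *Hsd3b7* (1.38) were lowest. Of these neighbours, only *Cyp27a1* and *Slc27a5*, *Acox2* and *Cyp7b1*, and *Cyp7b1* and *Hsd3b7* had ranges that did not overlap. In KPF the order began alike, with *Cyp27a1* at 181, *Slc27a5* at 131, *Baat* at 65.4 and *Akr1d1* at 43.1 FPKM. *Cyp7a1* at 23.3 FPKM then stood ahead of *Amacr* (17.8), *Acox2* (16.0) and *Cyp8b1* (12.3), and only *Cyp7b1* (4.75) and *Hsd3b7* (0.61) were neighbours without overlap. In both groups the place of *Hsd3b7* in the order is uncertain, because other genes overlap it and may affect its counts. The summed FPKM of the 10 genes was 269, 736 and 481 in KPF and 428, 472 and 654 in WPF, and *Cyp27a1* made 30.1% to 41.8% of the sum. The log2 ratio of the mean sums was -0.07, and it was -0.47 without KPF replicate 2 and 0.14 without WPF replicate 4.

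Of 16 other genes of bile acid synthesis, 14 were tested, 1 passed the unadjusted rule as higher in KPF and 1 as lower. The shares over all tested genes were 5.83% and 3.98%. The median log2 fold change of the 14 genes was 0.02. *Cyp39a1*, the hydroxylase of a side branch that starts from an oxysterol made in brain, was at 3.77, 7.35 and 4.58 CPM in KPF dams and at 15.8, 9.47 and 10.4 CPM in WPF. The groups did not overlap, as in 15.7% of tested genes, and the log2 fold change was -1.18 (standard error 0.35, unadjusted p = 0.00995, adjusted p = 0.430 from edgeR). *Cyp2a12*, known for hydroxylating secondary bile acids in mice, had the highest mean FPKM of the list. It was at 1004, 1324 and 1121 CPM in KPF dams and at 805, 690 and 742 CPM in WPF. Every KPF dam was above every WPF dam, with a change of 0.63 on the log2 scale (standard error 0.25, unadjusted p = 0.0384, adjusted p = 0.448 from edgeR). Neither gene passed the adjustment, and the call held under all 13 alternative settings with a value for *Cyp39a1* but under 4 of 14 for *Cyp2a12*, whose call was lost without any 1 library other than KPF replicate 1 (0.50 without KPF replicate 2). *Ch25h* and *Star* were below the FPKM minimum, and *Ch25h* had no reads in 2 libraries.

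Of 12 regulators of bile acid synthesis, all were tested, 1 passed the unadjusted rule as higher in KPF and 0 as lower, with a median log2 fold change of 0.03. Over all tested genes, 5.83% passed as higher and 3.98% as lower, and 15.7% did not overlap. *Nr1h4*, the bile acid receptor FXR, was at 219, 313 and 210 CPM in KPF dams and at 138, 174 and 170 CPM in WPF, without overlap (log2 fold change 0.62, standard error 0.26, unadjusted p = 0.0458, adjusted p = 0.456 from edgeR). This call held under 5 of 14 alternative settings and was lost without KPF replicate 2 (0.41, unadjusted p = 0.144 from edgeR) or any 1 of the WPF dams. *Hnf4a*, a hepatocyte factor and the most abundant regulator listed, was at 596, 409 and 443 CPM in KPF dams and at 413, 409 and 417 CPM in WPF, and did not pass. *Nr0b2* (SHP), named here after its values were seen because it is a target of FXR, was at 7.05, 36.2 and 5.84 CPM in KPF dams and at 16.4, 20.4 and 15.3 CPM in WPF. KPF replicate 2 was the highest and the other KPF dams the lowest for *Nr0b2* (log2 fold change -0.08, standard error 0.65, adjusted p = 0.970 from edgeR).

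The tested genes most like *Cyp7a1* over the 6 libraries, by Pearson r of log2(CPM + 1), were *Mpv17l* (r = 0.994), *Nat1* (r = 0.990) and *Gm8941* (r = 0.990). Those most like *Cyp8b1* were *Tmie* (r = 0.992), *Lrfn3* (r = 0.989) and *Chka* (r = 0.986). *Chka*, a choline kinase, was at 271, 59.8 and 499 CPM in KPF dams and at 1259, 816 and 108 CPM in WPF, so that its lowest libraries were the lowest for *Cyp8b1* too. These genes were picked as the highest of 10866 over 6 libraries, each point of which is 1 library shared by both genes, and r serves as a description.

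Most of the listed circadian clock genes also split the dams across the groups. The hepatic transcription of *Cyp7a1* is known to follow a daily rhythm, and the hour of sacrifice was not given in the sources used here. Of 16 clock genes, 15 were tested and none passed the unadjusted rule between KPF and WPF, where 9.81% of all tested genes passed it. Their median log2 fold change was -0.01. *Dbp*, a clock output factor and the listed clock gene of highest mean FPKM, was at 38.8, 208 and 5.94 CPM in KPF dams and at 2.01, 1.57 and 288 CPM in WPF, a 184-fold span. *Arntl*, a core activator of the clock chosen here after its values were seen, was at 2.41, 1.08 and 26.6 CPM in KPF dams and at 21.2, 31.3 and 1.48 CPM in WPF. KPF replicates 1 and 2 and WPF replicate 4 had high *Dbp* and low *Arntl*, and KPF replicate 3 and WPF replicates 2 and 3 had the reverse. Of the 16 listed clock genes, only *Per2* and *Bhlhe41*, named after their values were seen, did not separate these sets of dams without overlap. The sets were drawn after the values were seen, and the share of all tested genes that separate them was not counted. For *Cry1* the sets nearly met, with 7.98 CPM in KPF replicate 2 and 8.08 CPM in KPF replicate 3. *Per2* was at 108 CPM in WPF replicate 3 against 64.8 CPM in WPF replicate 4. *Bhlhe41* was at 3.41 CPM in KPF replicate 3 against 2.12 CPM in KPF replicate 1. The 3 highest levels of *Cyp8b1*, from 42.8 to 97.8 CPM, were in KPF replicate 3 and WPF replicates 2 and 3 as well. *Cyp7a1* did not follow that order, since it was lowest in WPF replicates 2 and 3 but highest in KPF replicate 3. *Cyp2c70*, the enzyme of muricholic acid synthesis and also named after its values were seen, was like *Cyp7a1* highest in KPF replicate 3 (628 CPM) and WPF replicate 4 (589 CPM) and at 111 to 388 CPM elsewhere. The part of the clock genes in the spread of the enzymes was not tested.

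**Figure D4:**
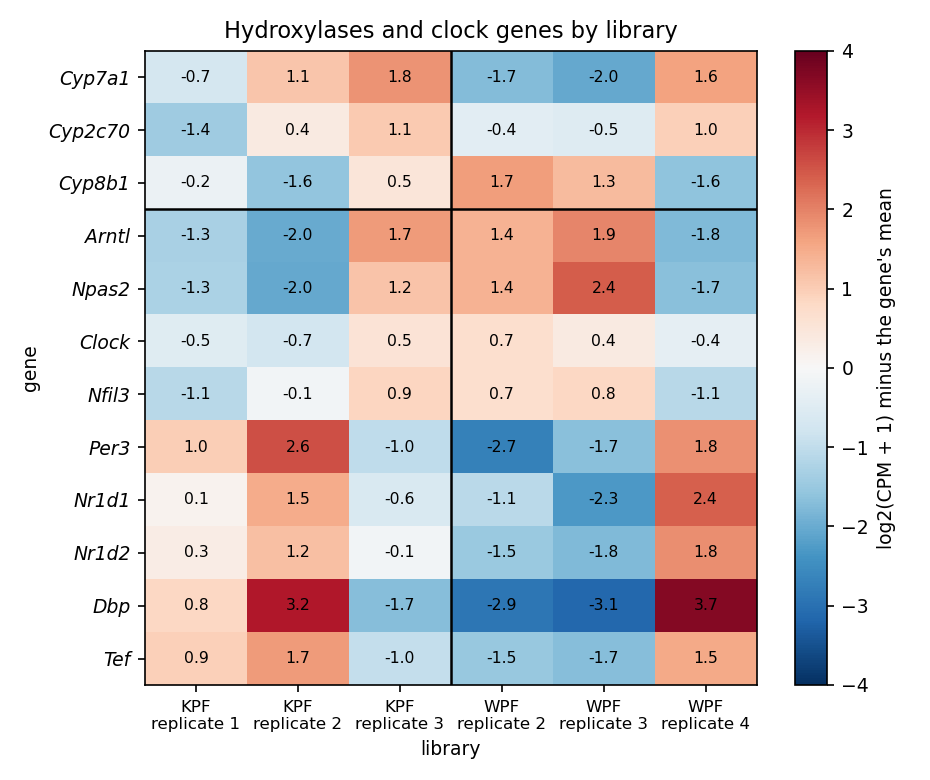
Log2(CPM + 1) minus the gene's mean over the 6 libraries for 3 bile acid hydroxylases and 9 clock genes chosen after their values were seen; columns are libraries, KPF on the left of the line and WPF on the right, red is above and blue below the mean. *Cyp8b1* and *Arntl* are above their means in KPF replicate 3 and WPF replicates 2 and 3, where *Dbp* is below its mean.

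Markers of liver cell types were read in the same libraries. The 7 hepatocyte markers were abundant everywhere. Their summed level was 92259 to 120516 CPM in KPF and 120741 to 198283 CPM in WPF, without overlap but with ranges that nearly met. *Alb*, named here after its values were seen, made most of the sum. Its own levels overlapped, with 91390 CPM in KPF replicate 3 and 90628 CPM in WPF replicate 4. Over all tested genes, 15.7% did not overlap and 9.81% passed the unadjusted rule. *Apoa2*, an apolipoprotein, was the hepatocyte marker past the unadjusted rule (log2 fold change -0.79, adjusted p = 0.453 from edgeR). The 8 pericentral hepatocyte markers, from the zone where *Cyp7a1* is mainly made, summed to 1800 to 3130 CPM in KPF and 2032 to 3551 CPM in WPF. The pericentral Wnt target *Axin2* passed the unadjusted rule (log2 fold change -1.27, adjusted p = 0.430 from edgeR). Over the 8 pericentral markers the median log2 fold change was 0.04, with members in both directions. The 7 periportal markers summed to 700 to 3184 CPM in KPF and 1031 to 1310 CPM in WPF, and *Pck1* passed the unadjusted rule with 1744 CPM in KPF replicate 2 against 131 to 326 CPM elsewhere. Cholangiocyte markers (2 of 5 tested) summed to 26.8 to 36.1 CPM in KPF and 25.0 to 51.9 CPM in WPF. Kupffer cell markers summed to 118 to 184 CPM against 133 to 239 CPM, and sinusoidal endothelial markers to 104 to 114 CPM against 97.0 to 117 CPM, and none of these 3 lists had a member past the rule. Their genes of highest mean FPKM were *Spp1* (18.6 to 46.5 CPM over the 6 libraries), *Clec4f* (73.5 to 138 CPM) and *Clec4g* (20.3 to 25.6 CPM). Stellate cell markers summed to 273 to 821 CPM in KPF and 265 to 301 CPM in WPF, and *Des* and *Reln* passed the rule. *Des*, which muscle also makes, was at 493 CPM in KPF replicate 2, the library with the skeletal muscle genes, and its log2 fold change fell from 4.37 to 1.85 without that library. *Pck1* was at 0.46 on the same scale without it and did not pass. Under the alternative settings these marker calls held in 13 of 13 for *Axin2*, 12 of 14 for *Des*, 8 of 14 for *Apoa2* and for *Pck1*, and 6 of 13 for *Reln*. Erythroid markers summed to 105 to 518 CPM in KPF and 48.1 to 329 CPM in WPF, and neutrophil markers to 3.41 to 6.54 CPM and 2.80 to 4.04 CPM, with none past the rule. *Hba-a1* (23.9 to 272 CPM), whose reads can be split with its near-identical copy *Hba-a2*, and *S100a9* (1.05 to 2.87 CPM) had the highest mean FPKM of their lists. The part of these cell types in the levels of the enzymes was not tested.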

How the data were processed

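RNA-seq libraries came from livers of 3 KPF and 3 WPF dams. Per gene and library, the authors deposited a raw read count and an FPKM value, which is the count scaled by exonic length and counted reads. The submitters' processing notes name cutadapt 1.9.1, HISAT2 2.2.1, HTSeq 0.6.1, DESeq2 and GRCm39; the strand setting of the counting was not given in the sources used here. Symbols were matched for 52073 of 56691 gene IDs. Libraries of 10694496 to 14496630 counted reads leave genes with few reads, such as *Hsd3b7*, with wide error. No pair of libraries of a group was alike within sampling noise (chi-square per gene 35.5 or more).

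Groups were compared on the counts of genes averaging 1 FPKM or more, scaled by TMM, by the quasi-likelihood test of edgeR 4.0.16 (in R 4.3.3) with Benjamini-Hochberg adjustment. A gene was called at an unadjusted p under 0.05 with a change of at least 1.5-fold. The script was tested on simulated data. An exact two-sided permutation test of 3 against 3 dams cannot go below 0.1. The members and gene lists were chosen with earlier results of these data known, and the skeletal muscle list after the data were seen. Genes named were all members, every listed gene past the unadjusted rule, otherwise the listed gene of highest mean FPKM, the 3 genes most like *Cyp7a1* (the member with the largest SD) and *Cyp8b1*, and *Mlxipl*; the few others are marked in the text. Alternatives were other scalings, filters and tests (DESeq2 1.42.0, limma 3.58.1), leaving out each library and a replicate block. The labels do not tie dams of the same number to each other.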

Additional observations from a re-analysis of the deposited data

How the results depend on the processing

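Under 14 alternative settings the log2 fold changes of the enzymes gave 139 values, of which 118 kept their direction and side of the rule, 7 passed the unadjusted rule in the same direction and 14 changed sign. The changes of sign were in *Cyp27a1*, *Cyp7b1*, *Akr1d1*, *Acox2*, *Slc27a5* and *Baat*. Leaving out each library gave -0.57 to 0.30 for *Cyp27a1*, -0.28 to 0.79 for *Cyp7b1*, -0.75 to 0.041 for *Akr1d1*, -0.23 to 0.69 for *Acox2*, -0.22 to 0.94 for *Slc27a5* and -0.21 to 0.22 for *Baat*. limma on log2(FPKM + 0.1) gave -0.0051 for *Acox2*. *Cyp7b1* had no value at a mean FPKM of at least 5. Enzymes past the unadjusted rule numbered 1 with no filter on FPKM (*Cyp8b1*, where 9.21% of all genes fitted passed) and 0 to 2 when each library was left out (5.25% to 14.9% of tested genes). Enzymes without overlap numbered 1 with library totals (*Hsd3b7*, where 15.6% of tested genes did not overlap) and 0 to 3 when each library was left out (22.0% to 34.8% of tested genes). Over all genes, those past the rule numbered 1066, 2486 with no filter, 460 at a mean FPKM of at least 5 and 570 to 1619 when each library was left out. Genes with an adjusted p under 0.05 numbered 156 with DESeq2, 286 with no filter (none of either an enzyme) and 0 to 5 when each library was left out. Calls higher in KPF were 59.5% of all calls as reported, 34.1% when counts were scaled by library totals and 30.5% in limma's test of log2(FPKM + 1), as the median log2 fold change moved from 0.02 to -0.12 and -0.09. The causes were not tested. 3 dams a group limit all of these values, and few reads those of *Hsd3b7*.

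Replicate numbers 2 and 3 occur in both groups, but the deviations of same-numbered dams from their group means correlated at 0.035 and -1.86e-05, so the numbers were not taken as pairs. With the number as a replicate block, 3 enzymes and 11.3% of all tested genes passed the unadjusted rule (*Cyp7a1* 3.43, *Cyp8b1* -2.04, *Slc27a5* 1.01), and *Cyp27a1* was at 0.39, *Akr1d1* at 0.024, *Acox2* at -0.39 and *Baat* at 0.28 on the log2 scale. That fit compares only 2 KPF with 2 WPF dams, and leaves WPF replicate 4 and KPF replicate 1 with no partner.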

Other observations

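Ratios within a library, per base of exon, set pairs of enzymes of the same or of different pathways side by side. *Cyp27a1* exceeded *Cyp7a1* in all 6 libraries, by 11.6, 11.5 and 4.48 times in KPF and 52.6, 67.2 and 6.28 times in WPF. *Cyp7b1* was below *Cyp7a1* in all 3 KPF libraries (ratios 0.408, 0.147 and 0.205), and in WPF the ratios were 1.11, 0.766 and 0.173. Within the alternative pathway, *Cyp7b1* to *Cyp27a1* stood at 0.0353, 0.0127 and 0.0458 in KPF and 0.0211, 0.0114 and 0.0276 in WPF. The ratio of *Baat* to *Slc27a5* varied less, at 0.638, 0.329 and 0.945 in KPF and 0.755, 1.12 and 0.677 in WPF. *Acox2* and *Amacr*, which act on the same side chain, stood at ratios of 2.13, 0.308 and 0.735 in KPF and 1.18, 0.743 and 0.740 in WPF, so the KPF range enclosed the WPF range. No ratio separated the groups without overlap, and none was tested.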
